A study of Mus musculus with 64 samples.

Results

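The mitochondrial protein import machinery is the set of translocases, chaperones and peptidases that carry proteins made in the cytosol into mitochondria. Its genes were taken here as the protein-coding genes whose symbol begins with Timm or Tomm and a number, together with Pam16, Dnajc19, Grpel1, Pmpca, Pmpcb, Chchd4 and Gfer, leaving out pseudogenes. The rule found 32 genes among the 54331 genes of the count table, of which 21803 are protein-coding. It used names only and no measured value. All 32 genes passed the filter on low counts. In 30 of them every library held counts, whereas Timm8a2 was at 0 in 18 libraries and Tomm20l at 0 in 17.

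RNA was sequenced from early distal convoluted tubules (DCT), the nephron segment that reabsorbs sodium chloride through the cotransporter encoded by Slc12a3, dissected by hand from mouse kidneys. All animals were C57BL/6-Tg (Pvalb-tdTomato)15Gfng/J, whose transgene makes parvalbumin-expressing cells, which include the early DCT, fluoresce red. Male and female mice ate a furosemide diet for 12, 24, 48 or 96 h, or a control diet with its own mice at each time, which gives 16 groups of 4 libraries (8 libraries per diet and time) and no group without the transgene. Furosemide is a loop diuretic that blocks salt uptake in the thick ascending limb, upstream of the DCT. Ages are not stated in the labels, and a dissected tubule piece may hold cells of its neighbours. The labels number the replicates without saying that each is a separate animal, so a p-value here reflects only how much the libraries vary, which may be technical.

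Most mitochondrial proteins are encoded in the nucleus and cross the outer membrane through the TOM complex. Those with a cleavable presequence then pass through the TIM23 channel of the inner membrane, pulled by a motor built around a matrix Hsp70, and the presequence is cut off by a peptidase in the matrix. Carrier proteins take another path, escorted by small TIM chaperones to the TIM22 complex, and small cysteine-rich proteins are trapped between the membranes by a disulfide relay. DCT cells are packed with mitochondria that fuel sodium transport.

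Total counts ranged from 12.71 to 41.07 M (mega) per library, with a median of 20.45 M. The DCT marker Slc12a3 ranged from 2789 to 16690 CPM (counts scaled to library size with TMM factors, the scale of all levels unless a level per length is named), while Slc34a1 of the proximal tubule had a median of 8.26 CPM. Of the thick ascending limb markers, Umod had a median of 4596 CPM but Slc12a1 only 118.9 CPM (range 7.42 to 531). The 16 libraries of 96 h had a median of 32.4 M counts with 10.78% on mitochondrial DNA, against 19.15 M counts and 17.83% in the 48 earlier ones.

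3 libraries resembled the others of their group poorly, by the median rank correlation over 11131 genes. Replicate 3 of the female controls at 24 h had 0.448. In the female controls at 48 h, replicate 4 had 0.703, and in the males on furosemide at 12 h, replicate 4 had 0.722. The next lowest library was male control 48 h replicate 3 at 0.812, and the other male controls of 48 h had 0.827 to 0.852. In the 24 h library, 29 of the 30 detected import genes stood above all 3 other libraries of the group, with a median of 7.34-fold over their mean, against 1.73-fold for 11166 other protein-coding genes. Pam16 reached 333.6 CPM there, where the other 3 libraries held 8.33, 10.9 and 14.9 CPM, whereas Timm29 was the one import gene below its group, at 38.8 CPM against 45.6 to 74.5 CPM. In the 48 h library and the 12 h furosemide library the import genes Timm29, Tomm40 and Tomm70a stood out, with 963, 314 and 297 CPM in the first and 573, 439 and 114 CPM in the second. Another library, female furosemide 48 h replicate 2, was high in the same genes, at 348, 207 and 200.3 CPM, and was picked out for this after the values were seen. Results are therefore given with all 64 libraries and without these, either the 3 or the 4.

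**Figure D1:**
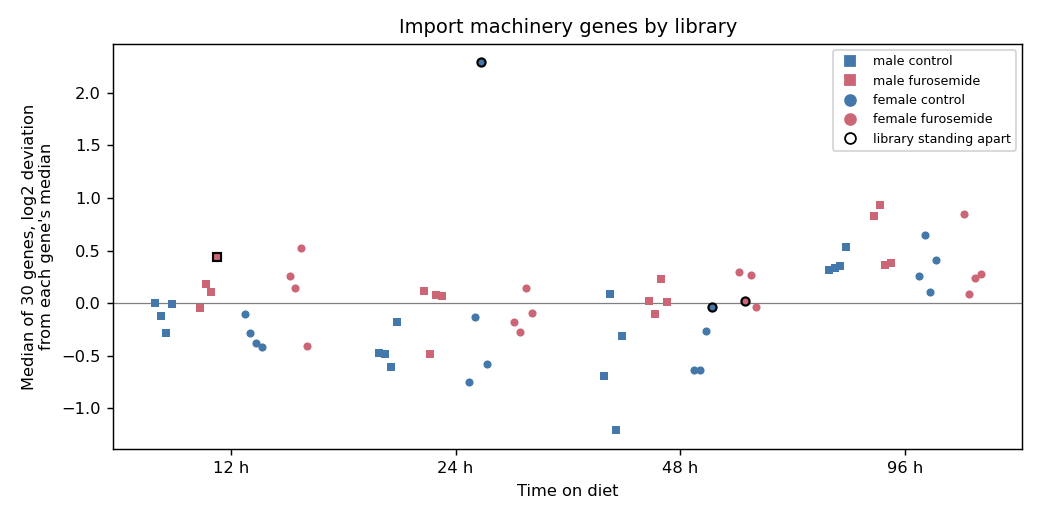
Each point is 1 library, and the vertical axis is the median over the 30 detected import genes of the log2 deviation (CPM plus 0.5) from that gene's median over the 64 libraries; symbols give sex and diet, and black outlines the 4 libraries described as standing apart. Female control 24 h replicate 3 lies at 2.29, the other 63 libraries lie between -1.21 and 0.93, and the libraries of 96 h lie at or above 0.09.

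The order of the genes by level was compared per length, as counts per kilobase of exon, scaled to the same sum in each library (TPM). The highest levels belonged to the small TOM subunits and to some of the small chaperones. Timm8b, a small chaperone of the intermembrane space, had a median of 334 TPM over the 64 libraries, Tomm6 196, Timm13 180, Tomm5 138 and Tomm7 113. Tomm5, Tomm6 and Tomm7 are the small subunits that assemble and steady the TOM complex. Timm23, which forms the presequence channel of the inner membrane, followed at 94.5. Timm23 ranged from 41.3 to 450, so that its place does not differ beyond this spread from those of its neighbours Tomm7 and Timm17b (82.9).

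Receptors and motor parts were below Timm8b, Timm13 and the small TOM subunits, as were the small chaperones Timm10 (58.9 TPM), Timm8a1 (37.8) and Timm9 (6.46). The motor part Grpel1, at 40.1, was above Timm8a1 and Timm9. Tomm22, the central receptor of the TOM complex, had a median of 45.0 TPM, Tomm20, the presequence receptor, 16.4, and Tomm70a, the receptor for carrier precursors and docking site for cytosolic chaperones, 4.59. Tomm40, the pore of the outer membrane, stood at 24.6, close to Timm50 (24.7), which hands precursors to the inner channel, and to the motor part Dnajc19 (24.7). Pam16, which restrains the motor, had a median of 9.12 and the widest relative range of the detected genes, from 1.21 to 123. Timm8a2 and Tomm20l were near 0, at 0.416 and 0.438.

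Where import genes come as paralogs, the level per length of 1 copy was above the other in each of the 64 libraries. Timm17b exceeded Timm17a, with a median ratio of Timm17a to Timm17b of 0.369 (range 0.167 to 0.686). Tomm40 exceeded Tomm40l by a median of 2.92-fold and Timm8b exceeded Timm8a1 by 9.57-fold. Tomm40l shares 3304 exon bases with Nr1i3 on the opposite strand, and Tomm6 shares 859 with the read-through gene Gm21981 on its own strand. Other import genes share exon bases with neighbours too. Among them are Pmpca (874 with Inpp5e), Pam16 (455 with Glis2), Grpel1 (411 with Tada2b) and Timm10b (376 with Gm45799, on its own strand). Since the library chemistry keeps no strand, the levels of these genes cannot be separated from their neighbours by the counts alone.

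The sequence before the gene start was examined because 28 of 32 import genes lay above 0 at 48 h. RefSeq promoters (250 bases before to 50 after the start, GRCm38.p6) were found for 29 of the 32 genes. Of 4 motifs searched on both strands, the ETS motif CCGGAAGT lay in 7 of 29 (24.1%), against 5.69% of all protein-coding genes, whether or not they had counts here. The NRF1 motif GCGCATGCG, the YY1 motif AAGATGGCG and the ERR motif CAAGGTCA lay in 1 gene each, against 2.61%, 2.14% and 1.56% of protein-coding genes. No match overlapped one of another motif. A match is a description of the letters and not of binding. The genes with the ETS match were Pmpcb, Timm10, Timm10b, Timm23, Timm29, Timm8a2 and Tomm70a. Of these Pmpcb and Timm8a2, which was near 0, were not called at 48 h without the 3 or the 4 libraries. The others were called without the 3, as were genes with no ETS match such as Tomm40 and Timm17a. A link between the motif and the diet was not tested. The exon-free stretches next to the start are shown for the paralogs Timm17a and Timm17b, whose ratio differed between the diets at 48 h and which held none of the 4 motifs there, and for Timm23 and Tomm70a, which have the ETS match (or its reverse complement) in capitals.
Timm17a, chr1:135313779-135313987, minus strand: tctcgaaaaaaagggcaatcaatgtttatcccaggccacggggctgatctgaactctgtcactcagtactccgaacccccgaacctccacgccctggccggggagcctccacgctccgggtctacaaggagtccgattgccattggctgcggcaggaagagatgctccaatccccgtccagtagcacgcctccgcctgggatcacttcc
Timm17b, chrX:7899270-7899335, plus strand: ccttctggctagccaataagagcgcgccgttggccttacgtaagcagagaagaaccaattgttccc
Timm23, chr14:32201899-32201948, minus strand: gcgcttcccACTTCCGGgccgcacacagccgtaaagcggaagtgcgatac
Tomm70a, chr16:57121464-57121702, plus strand: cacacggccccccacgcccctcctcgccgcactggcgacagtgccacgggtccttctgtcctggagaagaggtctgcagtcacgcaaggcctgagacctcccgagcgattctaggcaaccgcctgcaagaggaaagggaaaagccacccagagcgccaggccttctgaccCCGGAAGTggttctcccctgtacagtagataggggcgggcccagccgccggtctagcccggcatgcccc

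A protein-coding gene read in the other direction started within 1000 bases upstream (or up to 300 bases into the gene) for 9 of 32 import genes (28.1%), against 8.68% of all protein-coding genes in GENCODE M21. Timm23 and Parg start 51 bases apart, Timm17b and Pqbp1 88, Timm8b and Sdhd (a subunit of respiratory complex II) 98, and Pmpca and Entr1 23. Timm17a has no such neighbour.

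At 48 h most of the import genes had higher means on furosemide, and whether any passed the test depended on the libraries included. With all libraries the log2 fold change was above 0 in 28 of 32 genes, where 42.9% of all 41507 genes tested were above 0. The median over the import genes was 0.45, against -0.10 over all genes tested and -0.0009 over the protein-coding ones. By library, the median log2 deviation of the 30 detected import genes was -1.21 to 0.09 in controls and -0.10 to 0.30 on furosemide. For 11166 other protein-coding genes, each with a median of at least 5 CPM, it was -0.71 to 0.22 and -0.06 to 0.14. Male control 48 h replicate 3 was the lowest for both. How far the import genes share a shift of such genes was not tested. edgeR's quasi-likelihood test called 0 of 32 at an adjusted p under 0.05, as did DESeq2 and limma voom, and it called 0.00241% of all genes. With the median-ratio size factors of DESeq2 the median over all genes was -0.22 and that of the import genes 0.36, so their distance changed little with the scaling. With TMM, edgeR had 10 import genes, all of them higher, at an unadjusted p under 0.05, among 3926 genes in all. Without the 3 libraries, 30 of 32 were above 0, the median was 0.60, and 16 were called, all higher, where 3.05% of all genes were called. Without the 4 libraries 8 were called, all higher, beside 1.14% of all genes, and the median was 0.54. Leaving out any 1 library called 0 import genes. Those fits kept the trend of spread over genes from all 64 libraries, whereas the fits without the 3 or the 4 estimated it anew. Of the 3 libraries only female control 48 h replicate 4 is of this time, and of the 4 also female furosemide 48 h replicate 2. The calls at 48 h appear only when several libraries are left out together. The part of the new estimate of spread in this was not tested. The median over the import genes was above 0 in each of these fits. With 1 library left out it was lowest, at 0.36, without male control 48 h replicate 3, and highest, at 0.60, without replicate 2 of that group. Those 2 libraries held 14.04 and 20.93 M counts. Total counts at 48 h were 14.04 to 23.49 M in controls and 17.62 to 22.56 M on furosemide. The part of depth in the difference between the diets was not tested.

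By role, the genes called at 48 h without the 3 libraries came from the outer membrane, both translocases of the inner membrane, the small chaperones and the disulfide relay. In the outer membrane they were the receptors Tomm22 and Tomm70a, the pore Tomm40 and the small subunit Tomm5. In the inner membrane they were Timm17a, Timm23 and Timm50 of the TIM23 channel, Dnajc19 and Grpel1 of its motor (Grpel1 is the nucleotide exchange factor of the matrix Hsp70), and Timm29 and Timm10b of the carrier translocase. Of the small chaperones they were Timm8a1, Timm8b, Timm10 and Timm13, and of the disulfide relay Gfer, the sulfhydryl oxidase that reoxidises it. The other 16 were not called, among them the subunits of the processing peptidase Pmpca and Pmpcb, the receptor Tomm20, the small TOM subunits Tomm6 and Tomm7, the paralogs Timm17b, Timm8a2, Tomm20l and Tomm40l, the disulfide relay receptor Chchd4, and Pam16, Timm21, Timm44, Timm22, Timm9 and Tomm34. The 8 genes called without the 4 libraries were all among the 16, namely Tomm22, Tomm40, Timm17a, Timm23, Timm50, Grpel1, Timm8b and Timm10b.

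Timm17a forms the TIM23 channel together with Timm23. At 48 h it lay between 76.7 and 166.0 CPM in the 8 control libraries (median 126) and between 155 and 232 CPM in the 8 furosemide libraries (median 177). The groups overlapped only between 155 and 166 CPM. The log2 fold change was 0.59 (SE 0.22) with an edgeR adjusted p of 0.39 over all libraries, 0.66 (SE 0.16, adjusted p = 0.0169) without the 3 libraries and 0.57 (SE 0.14, adjusted p = 0.0356) without the 4. Its paralog Timm17b stayed within 113 to 160 CPM in controls and 98.8 to 150 CPM on furosemide, with a log2 fold change of -0.003 (SE 0.17).

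The ratio of the paralogs needs no scaling between libraries. At 48 h the ratio of Timm17a to Timm17b was 0.192 to 0.376 in controls (median 0.304) and 0.337 to 0.605 on furosemide (median 0.409). An exact two-sided permutation of the diet labels within each sex (4900 arrangements) gave p = 0.00122 for the 1.54-fold difference of the geometric means, 0.0147 after adjustment over 12 tests (3 paralog pairs at 4 times). The difference was 0.64 in males and 0.60 in females on the log2 scale, with the same sign in both sexes. The ratio also differed among controls. In those of 96 h, whose libraries were deeper, it was 0.337 to 0.526 (median 0.430), with the median above that of furosemide at 48 h. The part of such library properties in the ratio was not tested. At 24 h the ratio was 1.30-fold higher on furosemide (adjusted exact permutation p = 0.0702, and 0.0269 without the 3 libraries), at 12 h 1.28-fold (adjusted exact permutation p = 0.248) and at 96 h 0.977-fold (adjusted exact permutation p = 0.890). The ratio of Tomm40 to Tomm40l was 1.36-fold higher at 24 h (adjusted exact permutation p = 0.0563), which did not pass, although 5 of the 16 fits that leave out 1 library did, with log2 differences of 0.37 to 0.52 over the 16. No pair and time other than Timm17a to Timm17b at 48 h passed with all libraries. These pairs were tested after their values had been seen.

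**Figure D2:**
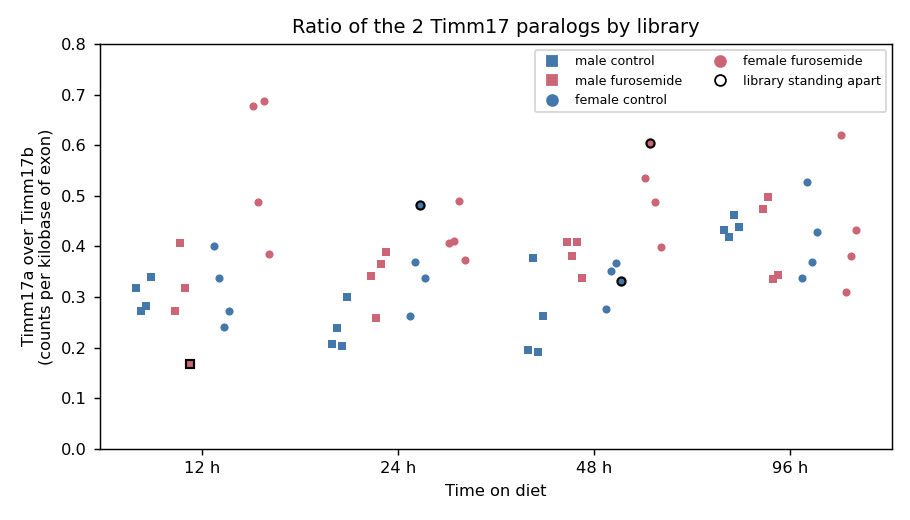
The ratio of Timm17a to Timm17b (counts per kilobase of exon) in each library by time, sex and diet, with the 4 libraries that stand apart outlined in black. At 48 h the 8 furosemide libraries lie between 0.337 and 0.605 and the 8 control libraries between 0.192 and 0.376. At 96 h the control libraries, between 0.337 and 0.526, lie within the wider range of the furosemide libraries, 0.310 to 0.621.

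Among the other genes, Timm8a1 had the smallest p at 48 h with all libraries. It was 14.1 to 39.3 CPM in controls (median 26.4) and 36.3 to 51.1 CPM on furosemide (median 45.4), with only the top of the control range reaching the furosemide libraries. Its log2 fold change was 0.81 (SE 0.30, edgeR adjusted p = 0.386), and 0.87 (SE 0.23, adjusted p = 0.0263) without the 3 libraries. Timm8a1 belongs to the chaperone that passes hydrophobic precursors across the intermembrane space. The small TOM subunit Tomm5 was 34.8 to 101 CPM in controls (median 57.9) and 66.7 to 125 CPM on furosemide (median 98.8), with a log2 fold change of 0.69 (SE 0.26, edgeR adjusted p = 0.392). The highest controls lay within the furosemide range.

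The difference of Tomm40, the outer membrane pore, depended on the libraries included. In the female controls of 48 h it was 52.3, 49.9, 68.7 and 314 CPM, and in the female furosemide libraries 121, 207, 104 and 70.8 CPM. In males, where no library was left out, it was 38.2, 76.9, 36.6 and 61.1 CPM in controls and 91.2, 85.6, 106 and 92.2 CPM on furosemide, so that the male groups did not overlap. The log2 fold change over both sexes was 0.44 (SE 0.31, edgeR adjusted p = 0.686) with all libraries, 1.04 (SE 0.20, adjusted p = 0.00874) without the 3 libraries and 0.77 (SE 0.19, adjusted p = 0.0304) without the 4. Timm29, a subunit of the TIM22 complex, and Tomm70a were called without the 3 libraries (1.88 and 1.21 on the log2 scale) but not without the 4 (1.42 and 0.65).

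Timm23, the inner membrane channel, was 48.5 to 142 CPM in controls (median 86.5) and 114 to 165 CPM on furosemide (median 147). Its log2 fold change was 0.67 (SE 0.28, edgeR adjusted p = 0.435) with all libraries and 0.77 (SE 0.19, adjusted p = 0.0186) without the 3. Grpel1 had 0.69 (SE 0.27, adjusted p = 0.400) and 0.79 (SE 0.19, adjusted p = 0.0168) in the same edgeR fits. Gfer was the smallest of the called differences without the 3 libraries, at 0.51 (SE 0.15, edgeR adjusted p = 0.0427), and had 0.10 (SE 0.22) with all libraries.

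**Figure D3:**
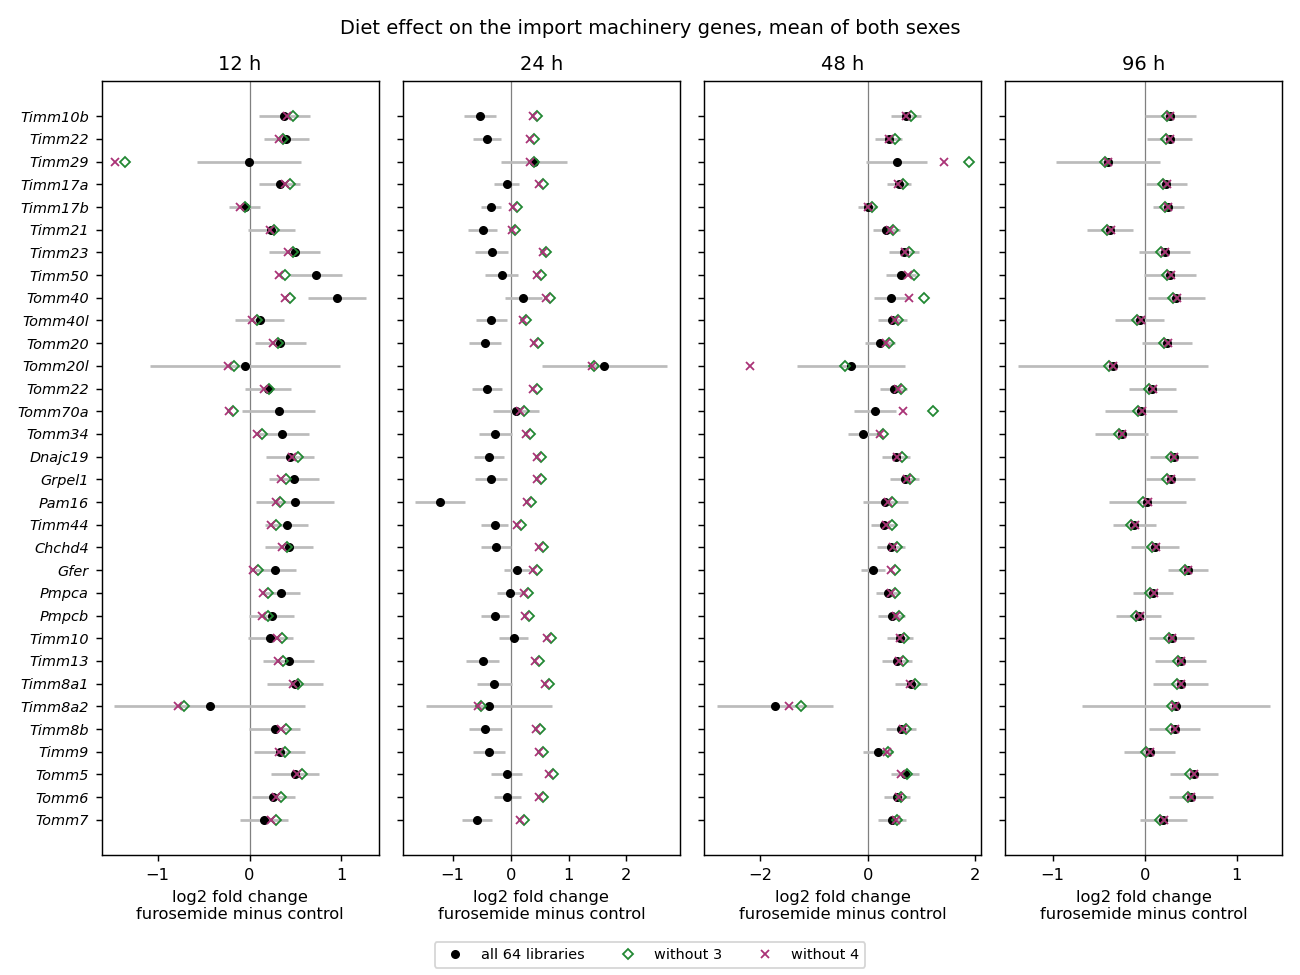
Log2 fold change of furosemide minus control (mean of both sexes) for each of the 32 genes, grouped by role, at the 4 times. Points with bars are the estimate and its SE with all 64 libraries, diamonds the estimate without 3 and crosses without 4 libraries; at 24 h 26 of 32 points lie below 0 with all libraries and 31 of 32 diamonds above 0, and at 48 h 28 points and 30 diamonds lie above 0.

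Markers of cell types were summed at 48 h. The DCT markers (10 genes) summed to 10830 to 39000 CPM in controls (median 18880) and 23000 to 30900 CPM on furosemide (median 28930), with 6 of 10 above 0 and 0 called, but 3 called higher without the 3 libraries and 1 without the 4. The median sums of the connecting tubule and principal cell markers were 1249 CPM in controls and 1618 CPM on furosemide. Those of the thick ascending limb markers were 7266 and 7040, of the endothelial markers 434 and 513, of the immune markers 241 and 289, and of the intercalated cell markers 18.1 and 20.1. With all libraries 0 were called in each. Without the 3 libraries 1 thick ascending limb marker and 1 endothelial marker were called higher, and 0 of either without the 4. All 5 erythroid markers had log2 fold changes below 0, with summed levels of 0.472 to 313 CPM in controls and 0.264 to 34.7 CPM on furosemide, and 0 were called with all libraries, 3 without the 3 and 1 without the 4. Markers of the proximal tubule stayed low, at 12.4 to 60.6 CPM in controls and 14.2 to 63.3 CPM on furosemide over 9 genes. The part of these markers in the differences of the import genes was not tested, and in dissected tubules fewer cells of a type and less RNA per cell cannot be told apart.

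At 12 h, 28 of 32 import genes were above 0. Their median log2 fold change was 0.33 (0.00 over all genes, 0.089 over protein-coding ones). edgeR called 0 of 32 and 0% of all genes. DESeq2 and limma voom also called 0. Only Tomm40 and Timm50 had an unadjusted p under 0.05 (2 genes). Tomm40 was 47.1 to 77.1 CPM in controls (median 61.1) and 48.9 to 439 CPM on furosemide (median 85.0), with a log2 fold change of 0.95 (SE 0.31, edgeR adjusted p = 0.377). Timm50 was 32.4 to 54.8 CPM in controls and 34.7 to 194 CPM on furosemide (0.72, SE 0.28, edgeR adjusted p = 0.431), and Tomm5 followed at 0.49 (SE 0.26). The top value of Tomm40 and Timm50 is the same library, male furosemide 12 h replicate 4, without which they had 0.41 and 0.35. With the 3 libraries left out, 27 of 32 genes were above 0, the median was 0.34 and 0 were called, beside 0.00723% of all genes.

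At 24 h the sign of the median over the import genes depended on 1 library. With all libraries 26 of 32 genes were below 0, with a median of -0.31 (-0.04 over all genes). edgeR called 0 of 32 and 0.00964% of all genes, and DESeq2 and limma voom called 0 as well. At an unadjusted p under 0.05 there were 2 genes, both lower, Pam16 (-1.22, SE 0.43, edgeR adjusted p = 0.496) and Tomm7 (-0.59, SE 0.26, edgeR adjusted p = 0.613), followed by Timm17b (-0.34, SE 0.17). When the 3 libraries were left out, of which 1 (replicate 3 of the female controls) is of this time, 31 of 32 genes were above 0, the median was 0.47, and Pam16 stood at 0.35. None was called then, beside 0.00482% of all genes, although 19 had an unadjusted p under 0.05, all higher.

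With all libraries, Pam16 was the single import gene that edgeR with TMM called within a sex. In females at 24 h, edgeR called it lower on furosemide (-2.62, SE 0.63, adjusted p = 0.0494) and called 0.272% of all genes. DESeq2 called 12 import genes lower in that comparison, edgeR with the DESeq2 size factors 3, and limma voom 0. The shares of all genes called in those fits are not given, so these counts have no background beside them. The 4 furosemide libraries held 10.4, 13.4, 15.7 and 20.5 CPM, of which 2 lie within and 2 above the 8.33 to 14.9 CPM of the 3 other controls, all far below the control at 333.6 CPM. Without that control alone, and also without the 3 libraries, the female log2 fold change was 0.44 and edgeR called 0 import genes. In the fit without the 3 libraries it called 0% of all genes. In males at 24 h, 29 of 32 import genes were above 0, with a median of 0.46, and 0 were called by edgeR (0% of all genes), DESeq2 or limma voom. At an unadjusted p under 0.05 edgeR had 0, limma voom 1 higher, and DESeq2 1 higher and 1 lower, whereas edgeR without the 3 libraries had 17 higher.

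At 96 h 24 of 32 genes were above 0 with a median log2 fold change of 0.24 (0.01 over all genes), and edgeR called 0 of 32, as did DESeq2 and limma voom, beside 0.0819% of all genes. At an unadjusted p under 0.05 there were 3 genes, all higher, Gfer (0.47, SE 0.22), Tomm6 (0.50, SE 0.24) and Tomm5 (0.53, SE 0.26), each with an edgeR adjusted p of 1.0. Tomm5 was 69.2 to 92.8 CPM in controls (median 75.8) and 83.1 to 135 CPM on furosemide (median 109). The median at 96 h moved with Lars2. The 5 libraries of 96 h with the most Lars2 (18342 to 29626 CPM) are all furosemide libraries, and without them the median was 0.39, with 30 of 32 above 0. With Lars2 as a covariate it was 0.49, with 30 of 32 above 0 and 13 at an unadjusted p under 0.05, and edgeR called 0 import genes in both fits. Leaving out female furosemide 96 h replicate 1 gave 0.12. Tomm5 was among the 3 smallest p at 12, 48 and 96 h and above 0 at each of these times.

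Within the sexes, edgeR called 0 import genes at 12 h in males (0.00241% of all genes) and in females (0%), at 48 h in males and in females (0% in each) and at 96 h in males (0.012%) and in females (0.00723%), and DESeq2 and limma voom called 0 in each. At an unadjusted p under 0.05 there were 3 genes in each sex at 12 h, 4 in males and 1 in females at 48 h, and 1 in males and 0 in females at 96 h, all higher. The medians in males were 0.24, 0.46, 0.50 and 0.31 at 12, 24, 48 and 96 h, and in females 0.46, -0.95, 0.48 and 0.09. The female median at 24 h was 0.42, with 30 of 32 above 0, without the 3 libraries, of which 1 is in these groups, and -0.31 with limma voom. Leaving out the 3 libraries, edgeR called Tomm40 and Tomm70a higher in females at 48 h (0.436% of all genes), and without the 4 called none (0%). In the fit without the 3 libraries Timm29 was called lower in males at 12 h (-3.33, SE 0.73, edgeR adjusted p = 0.0498). That comparison called 0.0602% of all genes, in either direction. For Timm29 the control libraries held 29.6, 163, 717 and 44.6 CPM and the 3 remaining furosemide libraries 13.1, 17.6 and 37.0 CPM.

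The differences themselves were tested too. The diet effect did not pass the test for a difference between the sexes in any import gene at 12, 24, 48 or 96 h with edgeR (0% of all genes at each). limma voom called 0 too, and DESeq2 called 4 at 24 h, all more negative in females, and 0 at the other times. The share of all genes that DESeq2 called there is not given. At an unadjusted p under 0.05 edgeR had 22 more negative and 1 more positive in females at 24 h, 1 more negative at 48 h and 0 at 12 and 96 h. At 24 h the median of this difference was -1.39, and without the 3 libraries it was -0.10, with 0 import genes at an unadjusted p under 0.05. Between times, 0 import genes passed the test in any of the 6 pairs with edgeR, DESeq2 or limma voom. In those pairs edgeR called between 0% and 0.00482% of all genes, with 0.00241% for 48 h minus 12 h and for 96 h minus 12 h. At an unadjusted p under 0.05, 16 import genes had a larger effect at 48 h than at 24 h, and 2 without the 3 libraries. Their number was 11 for a smaller effect at 24 h than at 12 h, 5 for a larger one at 96 h than at 24 h, and 1 for a smaller one at 96 h than at 48 h. Without the 3 libraries 0 had a smaller and 1 a larger effect at 24 h than at 12 h (median 0.15), 0 a larger and 2 a smaller one at 96 h than at 24 h (median -0.31), and 13 a smaller one at 96 h than at 48 h (median -0.46), with 0 called.

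The controls of different times were compared as well. In the controls of 96 h against those of 12 to 48 h, edgeR called 10 of 32 import genes higher and 0 lower, where 12.3% of all genes were called. Of the import genes 27 of 32 were above 0, with a median of 0.51 (-0.002 over all genes, 0.085 over protein-coding ones). With the median-ratio size factors 8 were called higher and 3 lower, and the share of all genes in that fit is not given. The 10 genes called higher with TMM were Pam16, Timm21, Timm23, Timm29, Timm44, Timm8b, Tomm7, Tomm22, Tomm34 and Pmpca. Pam16 was 33.1 to 63.7 CPM in the 8 controls of 96 h (median 47.4) and 1.93 to 333.6 CPM in the 24 earlier ones (median 12.9), with a log2 fold change of 1.50 (SE 0.32, edgeR adjusted p = 0.000563). Apart from the library at 333.6 CPM, no control of 12 to 48 h reached those of 96 h. Timm21, which links the inner channel to the respiratory chain, was 17.4 to 35.9 CPM against 6.17 to 58.6 CPM (1.01, SE 0.20, edgeR adjusted p = 0.000165).

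Among the other genes called there, Timm44, which anchors the motor to the channel, was 47.4 to 76.9 CPM (median 61.7) at 96 h against 15.2 to 134 CPM (median 32.4), and Tomm7 103 to 198 CPM (median 158) against 36.1 to 610 CPM (median 81.5). Timm29 was 98.9 to 403 CPM (median 148) against 18.9 to 963 CPM (median 43.5). Timm17b had a lower median at 96 h, at 104 to 153 CPM (median 123) against 113 to 481 CPM (median 138), and did not pass the test. Outside the 3 libraries 25 of 32 were called higher, beside 23.7% of all genes, and Pam16 had 2.10 (SE 0.22). The 96 h libraries also differed in depth, in their share of mitochondrial counts and in Lars2 (a median of 10602 CPM, taken over all counts, against 36128 before), so time and these properties cannot be told apart. Markers of the connecting tubule and principal cells were called higher at 96 h in 4 of 8 genes and DCT markers lower in 3 of 10. Endothelial markers summed to a median of 866 CPM in the controls of 96 h against 510, 392 and 434 CPM in those of 12, 24 and 48 h (2 of 6 called higher, 1 lower), and immune markers to 503 against 264, 175 and 241 CPM (2 of 8 higher, 1 lower). The part of these markers was not tested. With Lars2 as a covariate edgeR called 0 import genes and 0.981% of all genes, and the median was -0.31.

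**Figure D4:**
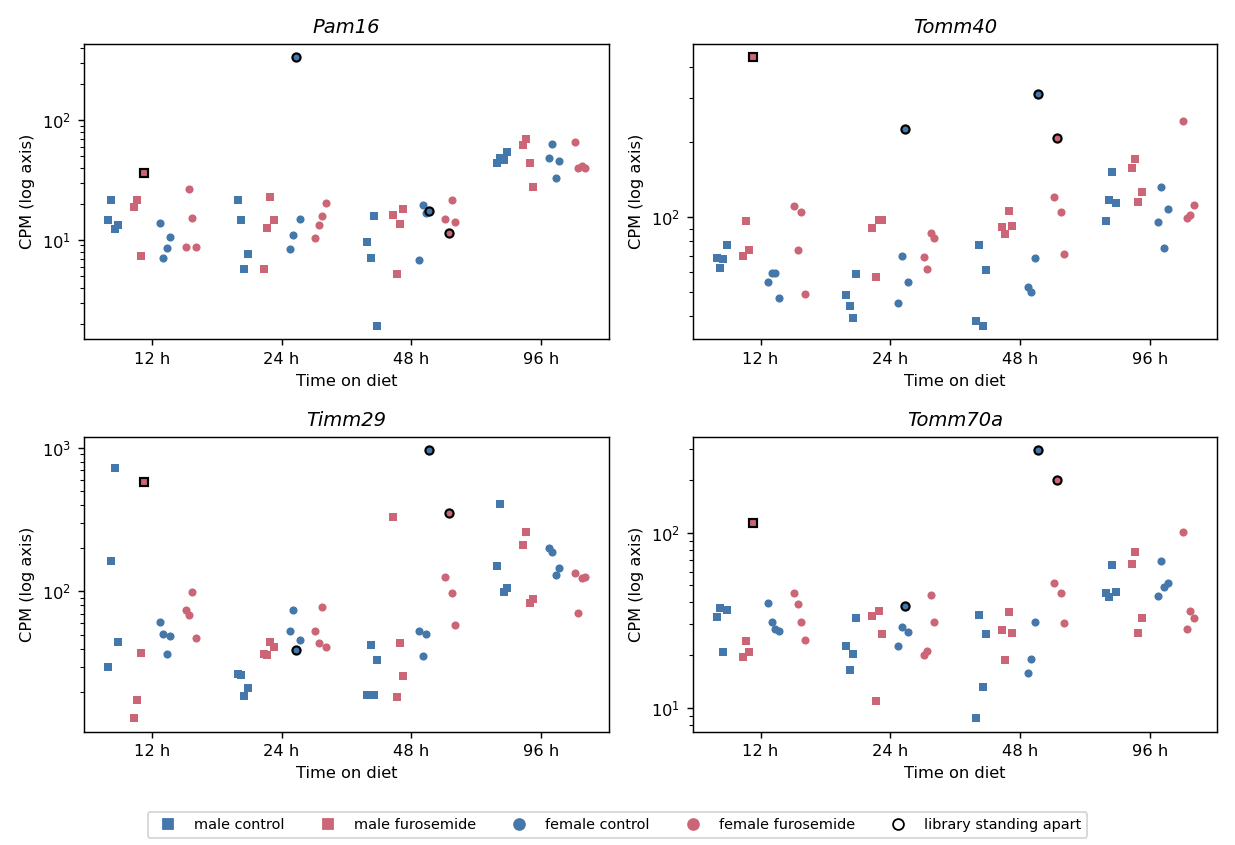
CPM on a log axis of Pam16, Tomm40, Timm29 and Tomm70a in each library by time, sex and diet, with the 4 libraries that stand apart outlined in black. Pam16 lies between 27.8 and 69.2 CPM in the 16 libraries of 96 h and, apart from 1 library at 333.6 CPM, between 1.93 and 35.9 CPM before; Tomm40, Timm29 and Tomm70a are high together in the outlined libraries of 12 and 48 h, while the Timm29 value of 717 CPM in a male control of 12 h is not outlined.

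Between female and male controls, 31 of 32 import genes were above 0 (higher in females) with a median of 0.33, and edgeR called 0 of 32 beside 1.24% of all genes, as did DESeq2 and limma voom. There were 8 genes at an unadjusted p under 0.05, all higher in females. Once the 3 libraries were left out, of which 2 are female controls, 8 of 32 were above 0, the median was -0.05 and 0 were called, beside 1.17% of all genes.

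Genes that work with the import machinery but lie outside the rule were counted in the same fits. At 48 h all 8 motor partners, all 9 genes of outer membrane sorting and insertion and all 7 genes of the MICOS scaffold, which shapes the cristae, were above 0, with medians of 0.60, 0.61 and 0.58, and 0 of each were called with all libraries. In the fit without the 3 libraries, which called 3.05% of all genes, 5, 6 and 5 of them were called, all higher. Without the 4 libraries (1.14% of all genes) 4, 0 and 3 were called. All 7 genes of inner membrane insertion and presequence trimming were above 0 too, with a lower median of 0.285. Of these 0 were called with all libraries, without the 3 and without the 4. Hspd1 (0.88, SE 0.20, edgeR adjusted p = 0.177) and Hspe1 (0.95, SE 0.25, adjusted p = 0.287) encode the chaperonin that folds imported proteins in the matrix, and both were called without the 3 and without the 4 libraries. Hspa9, the Hsp70 of the import motor, had 0.69 (SE 0.24), and without the 3 libraries 0.82 (SE 0.24, edgeR adjusted p = 0.042), but it was not called without the 4 (0.70, SE 0.23). Of the channel proteins of the outer membrane, Vdac1 had 0.63 (SE 0.25) and Vdac3 0.64 (SE 0.25).

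Of the cytosolic chaperones that deliver precursors, 9 of 10 were above 0, with a median of 0.57 and 0 called with all libraries. Hspa8, the constitutive Hsp70, had 0.95 (SE 0.25, edgeR adjusted p = 0.287) with all libraries and 1.05 (SE 0.23, adjusted p = 0.0133) without the 3, when 5 of the 10 were called. It was also called without the 4 libraries (0.97, SE 0.22, edgeR adjusted p = 0.0264), with 3 of the 10. Of 9 quality control proteases 7 were above 0 and only Oma1, a stress-activated protease of the inner membrane, was called without the 3 libraries (1.08, SE 0.24, edgeR adjusted p = 0.0139) and without the 4 (1.06, SE 0.23). Of 12 stress regulators 10 were above 0 and only Esrra, a nuclear receptor for mitochondrial genes, was called without the 3 (0.89, SE 0.21, edgeR adjusted p = 0.0158), and not without the 4 (0.51, SE 0.17). The 13 proteins encoded by mitochondrial DNA itself were all above 0 with a median of 0.26, and 0 were called with or without the 3 libraries.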

How the data were processed

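RNA of dissected mouse DCT was made into cDNA with a SMART-Seq HT kit and into libraries with a Nextera XT kit, per the labels' protocols, without strand or molecular identifiers. The deposited table holds estimated counts per gene that the authors made with Salmon 0.14.10 and GRCm38.p6, per the submitters' processing notes; the annotation release is not stated there. Of the values 55% are whole numbers, and all were rounded. Gene types and exon lengths came from GENCODE M21, which matched 54097 of 54331 genes. Intervals and p-values cover no error of read assignment between overlapping genes.

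Counts of the 41507 genes that passed edgeR's filterByExpr were scaled by TMM and fitted with 1 mean per group of 4 libraries over all 64 libraries (edgeR 4.0.16 quasi-likelihood test, R 4.3.3). Diet was compared at each time over both sexes and within each, then between sexes and times, and controls by sex and by time. P-values were adjusted by Benjamini-Hochberg over all genes and called under 0.05. SE is the log2 fold change divided by the root of F. The test was also run on simulated data without libraries that stand apart, so that run does not bear on calls that depend on such libraries. Alternatives were limma voom (limma 3.58.1), DESeq2 1.42.0, its size factors, other filters, a replicate block, each time alone, Lars2 as a covariate, and left-out libraries. Fits that left out 1 library kept the trend of spread over genes from all 64 libraries. Any import gene may be named; values by library are for those called in any fit, the 3 with the smallest p in the diet comparison of each time, and paralogs. Of other lists the genes called, or the 2 with the smallest p, are named. The import genes and the lists of other genes were chosen with earlier results of these data known, and the paralog ratios and the set of 4 libraries after their values were seen. Promoters are those of RefSeq on GRCm38.p6.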

Additional observations from a re-analysis of the deposited data

Results flagged for a closer look

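In each group of 4 libraries, the highest and the lowest value of each of the 30 detected import genes were compared with the nearest other value. The gap exceeded Dixon's 95% critical value in 61 of 480 groups, and the values lay in 19 libraries. For normally distributed values chance gives about 1 in 20, and CPM values need not be so distributed. The 30 genes share their libraries, so the 480 groups are not independent and 1 library can add many values.

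Of them 26 were in female control 24 h replicate 3. Its values were, in CPM, Chchd4 241.2, Dnajc19 469.8, Gfer 56.15, Grpel1 713.8, Pam16 333.6, Pmpcb 270.9, Timm10 147.9, Timm10b 504.3, Timm13 1309, Timm17a 716.1, Timm17b 481.2, Timm22 284.5, Timm23 898.1, Timm44 134.2, Timm50 246.6, Timm8a1 246.6, Timm8b 876.5, Timm9 128.1, Tomm20 386.6, Tomm22 386.1, Tomm34 85.87, Tomm40 225.5, Tomm40l 141.2, Tomm5 400.1, Tomm6 648.1 and Tomm7 610.3.

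Male furosemide 12 h replicate 4 held 7, in CPM Gfer 64.69, Timm29 573.4, Timm44 82.24, Timm50 194.4, Tomm34 51.11, Tomm40 438.9 and Tomm70a 114. Female control 48 h replicate 4 held 5, in CPM Gfer 54.56, Timm29 963.4, Timm50 60.68, Tomm40 313.6 and Tomm70a 296.9. Timm29, Tomm40, Tomm70a, Timm50 and Gfer stood apart in both libraries. Female furosemide 96 h replicate 1 held 4, in CPM Pam16 65.74, Timm23 304.7, Tomm40 243.1 and Tomm70a 101.4. Male furosemide 24 h replicate 2 held 4, in CPM Dnajc19 46.15, Timm22 30.99, Tomm40 57.47 and Tomm7 63. In male furosemide 48 h replicate 3 the CPM values were Grpel1 121.8 and Tomm20 69.69.

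The other libraries held 1 each. Among the female control libraries these were Timm13 212.8 CPM (12 h replicate 1), Timm17b 160.5 CPM (12 h replicate 3), Tomm5 70.86 CPM (48 h replicate 3) and Timm17b 153.1 CPM (96 h replicate 1). Among the female furosemide libraries these were Timm22 31.24 CPM (12 h replicate 4), Timm8a1 27.1 CPM (24 h replicate 4), Tomm70a 200.3 CPM (48 h replicate 2) and Timm29 70.31 CPM (96 h replicate 2). Among the male control libraries these were Pmpcb 80.89 CPM (24 h replicate 4), Timm29 403.3 CPM (96 h replicate 2), Tomm70a 65.32 CPM (96 h replicate 3) and Timm23 216.1 CPM (96 h replicate 4). Among the male furosemide libraries this was Timm29 331.5 CPM (48 h replicate 1). 

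The median deviation over the import genes stood apart in male control 96 h replicate 4 at 0.53 and in male furosemide 24 h replicate 2 at -0.48 on the log2 scale. The cause of these values was not tested.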

How the results depend on the processing

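The number of import genes called at 12, 24, 48 and 96 h over both sexes was 0 with each single library left out and in all alternatives except at 48 h, where 16 were called without the 3 libraries of low similarity and 8 without the 4. In females at 24 h 1 gene was called, against 0 with limma voom, with TMM without mitochondrial genes and Lars2, with no filter, with the replicate block, with the time fitted alone, with Lars2 as a covariate, and without the 3 or the 4 libraries, 3 with the DESeq2 size factors, 6 among protein-coding genes only and 12 with DESeq2. Leaving out each library in turn gave 0 to 16 there and 0 to 15 for the difference between the sexes at 24 h, for which DESeq2 called 4. In males at 12 h 1 gene was called without the 3 and 1 without the 4 libraries, and 0 with each library left out. In females at 48 h 2 were called without the 3, and the effect of 48 h minus 12 h had 1. In the controls of 96 h against earlier ones 10 were called, against 20 with limma voom, 6 with the replicate block, 25 and 24 without the 3 and the 4 libraries, 0 with Lars2 as a covariate, and 7 to 24 with each library left out (24 without female control 24 h replicate 3). Where the share of all genes called in a fit is not given above, these counts have no background beside them.

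The median at 24 h (-0.31) was 0.069 with limma voom, 0.0099 with Lars2 as a covariate, 0.47 without the 3 and 0.40 without the 4 libraries, and -0.43 to 0.47 with each library left out, the highest without female control 24 h replicate 3. The median of controls of 96 h against earlier ones (0.51) was 0.89 with the replicate block, 0.88 and 0.82 without the 3 and the 4 libraries, -0.31 with Lars2 as a covariate, and 0.47 to 0.84 with each library left out. The median of female minus male controls (0.33) was -0.055 and -0.045 without the 3 and the 4 libraries and -0.01 to 0.42 with each library left out. The cause of these changes was not tested.

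Single genes changed sign as follows. At 24 h Pam16 was 0.35 and 0.28 without the 3 and the 4 libraries (-1.40 to 0.35 with each library left out), Tomm7 0.23 and 0.17 (-0.73 to 0.23) and Timm17b 0.10 and 0.04 (-0.43 to 0.10), and Pam16 in females 0.44 and 0.38 (-3.01 to 0.44). With Lars2 as a covariate, Pmpca was -0.17, Timm21 -0.022, Timm23 -0.12, Tomm22 -0.10 and Tomm34 -0.31 at 96 h against earlier controls. With each library left out, the log2 difference of the ratio of Timm17a to Timm17b was 0.56 to 0.72 at 48 h and -0.13 to 0.040 at 96 h, that of Tomm40 to Tomm40l -0.036 to 0.40 at 48 h, and that of Timm8a1 to Timm8b -0.093 to 0.12 at 96 h.

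Replicate numbers did not pair the libraries. Over 32 pairs of the same number the correlation of deviations from the group means was -0.30 to 0.25, 1 pair exceeded 0.1, and 5 correlated best with their own number. Beyond the counts given, the block changed no count of import genes. With 4 libraries a group, genes near 0 such as Timm8a2 (410 counts in all) and Tomm20l (414) allow no statement on change.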

Other observations

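The lists of other genes were also counted in the controls of 96 h against those of 12 to 48 h, where edgeR called 12.3% of all genes. Of the genes of outer membrane sorting and insertion 6 of 9 were called higher and 1 lower, of the quality control proteases 6 of 9 higher, of inner membrane insertion and presequence trimming 4 of 7 higher, and of the MICOS scaffold 3 of 7 higher. The motor partners had 3 of 8 higher and 1 lower, and the cytosolic chaperones 6 of 10 higher and 2 lower. Of the proteins encoded by mitochondrial DNA 0 of 13 were above 0 and 8 were called lower, with a median log2 fold change of -0.80. The stress regulators had 0 of 12 called with edgeR, and 5 at an unadjusted p under 0.05. Time, depth and Lars2 cannot be told apart in this comparison.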
